A study of Mus musculus with 12 samples.

Results

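The betaine and methionine cycle genes described here are 9 genes of methyl group metabolism, *Bhmt*, *Bhmt2*, *Dmgdh*, *Chdh*, *Mat1a*, *Mat2a*, *Ahcy*, *Mtr* and *Cbs*. The list was chosen from the OHT change of *Bhmt2* in the same arrays and filled in by place in the pathway, so the values of *Bhmt2* are given as a description with no test. Of the 9 genes, 8 had a probe set annotated to their symbol alone, 11 probe sets in all among 45037, and *Mat2a* is not analysed here. *Mat1a* stayed under the limit for low signals, which left 10 probe sets of 7 genes among the 16432 genes fitted.

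In the methionine cycle, methionine is turned into S-adenosylmethionine, which gives its methyl group to DNA, histones, lipids and small molecules. The homocysteine that remains is either methylated back to methionine, with the methyl group coming from folate or from betaine, or drawn off toward cysteine. The betaine branch is best known from liver and kidney, whereas mouse embryonic stem cells (ESCs) are known for feeding the cycle from threonine and folate.

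RNA was measured on Affymetrix mouse genome arrays in 6 ESC lines, with 1 array on day 2 of treatment with 4-hydroxytamoxifen (OHT, 800 nM for 24 h) and 1 array before OHT for each line, 12 arrays in all. Every line was Ring1A-/-; Ring1B fl/fl; Rosa26::CreERT2 on a 129/B6 hybrid background, so that OHT activates a Cre recombinase made from the Rosa26 locus, which deletes *Ring1B* (*Rnf2*) in cells that already lack *Ring1A* (*Ring1*). The lines differed in the construct that they had stably taken up under puromycin selection: Ring1B (I53S) (#1 and #4) and Ring1B (I53A) (#1), which are defective in binding the E2 enzyme of H2A ubiquitination and are called the 3 mutant lines here, a mock line with an empty vector, and WT Ring1B (#1 and #3). Whether a line is 1 clone is not stated, and the cells were grown on irradiated mouse embryonic fibroblasts or on gelatin, without a label that tells which. Before OHT all lines still have their endogenous *Ring1B*, and by design the mutant, mock and WT lines then differ in the construct. They are also separate transfected lines, so other differences between lines cannot be told apart from the construct.

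Signals are log2 values after quantile normalization, and a log2 difference of 1 is a 2-fold change in signal. Probe sets entered the fit where at least 1 array exceeded 3.94, which is the 30th percentile of the whole data set. Each gene, averaged over its probe sets, was fitted in limma blocked on the line, and genes were called at an adjusted p under 0.05 over all 16432 genes. The mock class is a single line and was taken to vary as the others do. *Pou5f1* and the other 9 ESC markers were measured on all arrays, with mean levels of 11.05 to 11.21 on day 2 of OHT and 11.15 to 11.39 before OHT in mutant lines, 11.11 and 11.20 in mock cells, and 11.24 to 11.37 and 11.22 to 11.29 in WT lines. Their median change was -0.24 in mutant lines, -0.19 in mock cells and 0.04 in WT lines, with 3, 3 and 7 of the 10 above 0. Of these markers 1, *Klf4*, rose in mutant lines (0.55, adjusted p = 0.0354). Leaving out any 1 mutant or WT line took *Klf4* over the threshold (adjusted p from 0.0669 to 0.146). Of 17 measured fibroblast markers 1, *Thy1*, rose, by 0.68 in mutant lines (adjusted p = 0.0186) and by 1.32 in mock cells (adjusted p = 0.0366), of which the first call was lost with any 1 mutant line left out (0.0891 to 0.0974) and the second with any 1 other line left out (0.0723 to 0.0834). Of all genes, 4.91% were called higher in mutant lines and 1.29% in mock cells. The fibroblast markers had a median change of 0.65 in I53S #1, 0.18 in I53S #4, 0.14 in I53A #1, 0.66 in mock cells and 0.01 and 0.09 in WT lines #1 and #3. Of these 17 markers, 15 had a mean change above 0 in mutant lines, 16 in mock cells and 10 in WT lines. Their mean level was 6.54 to 7.54 on day 2 and 6.39 to 6.88 before OHT in mutant lines, 7.55 and 6.99 in mock cells, and 6.10 to 6.53 and 6.07 to 6.41 in WT lines. In bulk RNA a change in the share of a cell type and a change in RNA per cell cannot be told apart. *Rnf2* read between 7.06 and 7.58 on all 12 arrays. The mutant and WT lines also express a Ring1B construct, whose RNA these probe sets may read. The place of the probe sets relative to the deleted part is not stated in the sources either, so this does not check the deletion.

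*Bhmt2*, which methylates homocysteine with S-methylmethionine as the donor, was the member that differed most between lines, and the list was built on its rise. Its probe set 1418913_at read 5.33, 5.95 and 6.21 on day 2 of OHT in I53S #1, I53S #4 and I53A #1, against 3.15, 3.86 and 3.46 before OHT. In mock cells it read 5.84 on day 2 and 3.52 before OHT. In WT lines #1 and #3 it read 3.57 and 3.53 on day 2, against 3.35 and 3.42 before OHT. All 6 arrays before OHT and both WT arrays on day 2 thus lay under the limit of 3.94, and the 3 mutant arrays and the mock array of day 2 lay above it with no overlap.

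The second *Bhmt2* probe set, 1418914_s_at, showed the same division of the lines. It read 5.10, 6.27 and 6.26 on day 2 in mutant lines, against 2.91, 3.37 and 3.53 before OHT. It read 5.40 on day 2 in mock cells, against 2.70 before OHT, and 3.09 and 3.26 on day 2 in WT lines, against 2.86 and 3.02 before OHT. The ending _s_at marks probes that match more than one transcript, without naming them. Averaged over both probe sets, the change was 2.47 in mutant lines (SE 0.12), 2.51 in mock cells (SE 0.22) and 0.20 in WT lines (SE 0.15). Of all genes, 4 had a larger change in mutant lines and 20 in mock cells. *Bhmt2* was chosen for its rise, so this rank follows from the choice. Since *Bhmt2* passed the filter only through the 4 arrays on which it was high, these changes start from signals under that limit.

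**Figure D1:**
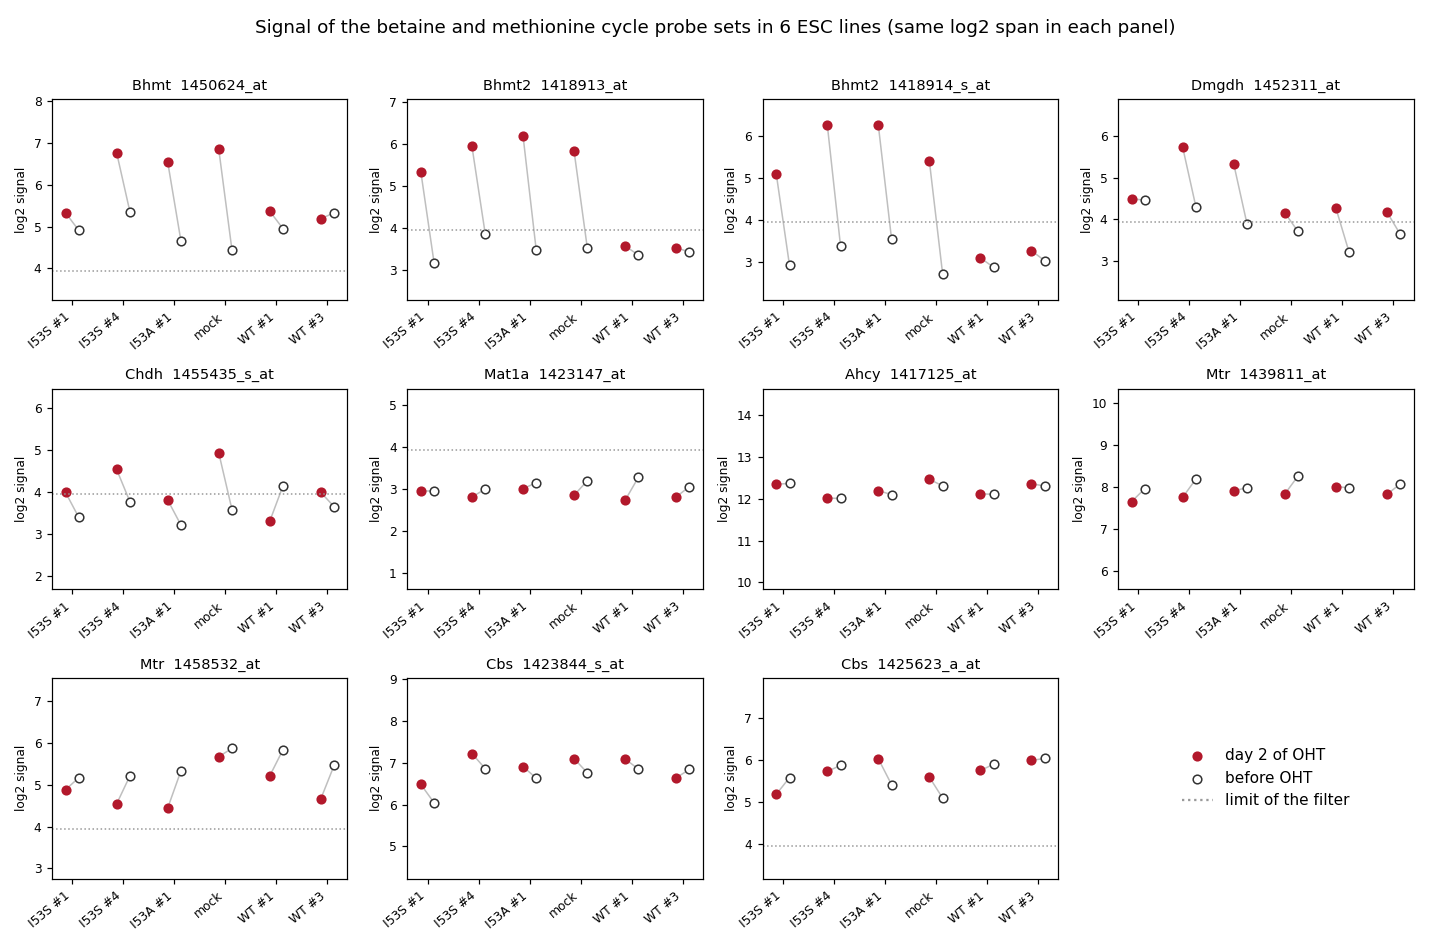
Log2 signal of each of the 11 probe sets (vertical axis, the same span of log2 units in each panel) in the 6 ESC lines on day 2 of OHT (filled) and before OHT (open), 1 array per point, with the limit of the filter at 3.94 dotted. Both *Bhmt2* probe sets lie above the limit only on day 2 of OHT in the 3 mutant lines and the mock line, and *Ahcy* lies between 12.01 and 12.47 on every array.

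*Bhmt* encodes betaine-homocysteine methyltransferase, which takes the methyl group from betaine and leaves dimethylglycine. Its probe set 1450624_at read 5.33, 6.77 and 6.55 on day 2 of OHT in I53S #1, I53S #4 and I53A #1, against 4.91, 5.36 and 4.66 before OHT. The mock line read 6.86 on day 2 and 4.44 before OHT, and the WT lines read 5.37 and 5.19 on day 2 and 4.95 and 5.33 before OHT. I53S #4, I53A #1 and the mock line were thus above all other arrays on day 2, whereas I53S #1 fell within the range of the WT lines. Unlike *Bhmt2*, *Bhmt* lay above the limit of the filter on all 12 arrays.

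The mean change of *Bhmt* was 1.24 in mutant lines (SE 0.28, adjusted p = 0.0644 from limma), 2.42 in mock cells (SE 0.49, adjusted p = 0.0805) and 0.14 in WT lines (SE 0.35, adjusted p = 0.968). None of these passed the threshold in the fit as designed. With a filter on the mean signal, above the median of all values, the adjusted p was 0.0316 in mutant lines and 0.0361 in mock cells, and with trended and robust priors it was 0.00431 and 0.00364. The difference of the OHT effect, mutant minus WT lines, was 1.10 (SE 0.45, adjusted p = 0.400). The mean of the mutant lines was 1.65 without I53S #1 (adjusted p = 0.0524), 1.15 without I53S #4 (0.216) and 0.92 without I53A #1 (0.202). The fibroblast markers had a median change of 0.65 in I53S #1, where *Bhmt* changed by 0.42, and of 0.18 and 0.14 in I53S #4 and I53A #1, where *Bhmt* changed by 1.42 and 1.88. In the mock line both changes were the highest of all lines, 0.66 for these markers and 2.42 for *Bhmt*, and in WT lines #1 and #3 the markers had 0.01 and 0.09 and *Bhmt* 0.42 and -0.15. The part of these cells in the result was not tested.

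*Dmgdh* encodes the mitochondrial dimethylglycine dehydrogenase, which removes a methyl group from the dimethylglycine that Bhmt leaves. It read 4.49, 5.73 and 5.33 on day 2 of OHT in I53S #1, I53S #4 and I53A #1, against 4.46, 4.30 and 3.90 before OHT. The mock line read 4.16 on day 2 and 3.71 before OHT, and the WT lines read 4.28 and 4.18 on day 2 and 3.22 and 3.65 before OHT. On day 2 all 6 arrays lay above the limit of the filter, and before OHT only those of I53S #1 and I53S #4 did, so that the changes in the other 4 lines start from signals under it. Every line was higher on day 2, the WT lines by 1.06 and 0.53 and I53S #1 by 0.03 only. The change was 0.96 in mutant lines (SE 0.30, adjusted p = 0.126), 0.45 in mock cells (SE 0.52, adjusted p = 0.683) and 0.79 in WT lines (SE 0.37, adjusted p = 0.701). The difference, mutant minus WT lines, was 0.17 (SE 0.47, adjusted p = 0.925). In mutant lines *Dmgdh* was called without I53S #1 (1.43, adjusted p = 0.0496) and with trended and robust priors (adjusted p = 0.0369), and it had 0.73 without I53S #4 or I53A #1 (adjusted p = 0.363 and 0.371).

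*Bhmt*, *Bhmt2* and *Dmgdh* lie next to each other on mouse chromosome 13, in that order among the measured genes. *Bhmt2* is read from the minus strand and *Dmgdh* from the plus strand, and their RefSeq start sites (assembly GRCm38.p6) lie 134 bases apart, whereas the start of *Bhmt* lies 36.5 kb from that of *Bhmt2* on the same strand. The stretch between the *Bhmt2* and *Dmgdh* starts, chr13:93674303-93674435, and the stretch of the same length before the *Bhmt* start, chr13:93637759-93637891, are shown because these neighbours are the members with the largest changes in mutant lines. Both are RefSeq sequences written 5′ to 3′ on the minus strand, with each CG dinucleotide in capitals.
Bhmt2-Dmgdh: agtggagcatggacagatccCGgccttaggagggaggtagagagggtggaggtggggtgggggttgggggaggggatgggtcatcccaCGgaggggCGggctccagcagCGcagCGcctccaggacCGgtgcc
Bhmt: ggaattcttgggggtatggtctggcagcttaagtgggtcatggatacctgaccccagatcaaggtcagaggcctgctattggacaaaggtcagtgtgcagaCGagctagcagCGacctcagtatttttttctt

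The stretch between *Bhmt2* and *Dmgdh* held 6 CG dinucleotides at 69.9% G and C, and that before *Bhmt* held 2 at 50.4%. Of all stretches of 133 bases before a start site in the RefSeq table, 39.4% had at least 6 and 68.1% at least 2, with a median of 3. CG reads the same on both strands, so 1 count serves for both. Over windows of 300 bases, from 250 before to 50 after the start, *Bhmt2* had 26 and *Dmgdh* 25 (reached by 16.9% and 18.4% of 32851 windows), and *Bhmt* had 8 (48.6%). The windows of *Bhmt2* and *Dmgdh* overlap. *Mtr* had 24, *Cbs* 22 and *Ahcy* 13, and the start of *Chdh* with the most had 26. Of the genes in the promoter table, a share of 12.2% have a partner that starts within 1000 bases on the other strand, as *Bhmt2* and *Dmgdh* do. Among 776 other measured pairs of this kind, 15 had at least 1 gene that rose in mutant lines and 1 had both. Of all genes 4.91% rose, but this share counts single genes and is not a like background for pairs. Whether partners of a pair rise together was not tested. The 14 partners that were not called had a median change of 0.03, and 8 of them were above 0.

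Of the 10 measured genes nearest to *Bhmt2*, 5 on either side, 1 rose in mutant lines, and 4.91% of all genes were called higher there. This gene was *Arsb*, the lysosomal arylsulfatase B, which starts 97.4 kb from *Bhmt2* and changed by 0.47, 0.69 and 0.72 in I53S #1, I53S #4 and I53A #1 (mean 0.62, SE 0.09, adjusted p = 0.0216 from limma). With 1 mutant line left out its adjusted p ran from 0.0739 to 0.112, and 1 of its 3 probe sets passed by itself (adjusted p = 0.0173, against 0.182 and 0.711). It changed by 0.88 in mock cells (adjusted p = 0.0684) and by 0.12 and 0.10 in WT lines. *Scamp1*, a membrane carrier protein of the secretory pathway, had 0.81 in mutant lines (SE 0.23, adjusted p = 0.106), with 1.50 in I53S #1 and 0.27 in I53S #4, 1.35 in mock cells (adjusted p = 0.154), and 0.73 and 0.56 in WT lines. On the other side of *Bhmt*, *Jmy*, an actin nucleator, had -0.22, and the scaffold gene *Homer1*, the poly(A) polymerase gene *Tent2* and *Gm4814* had 0.05, -0.06 and -0.19. *Lhfpl2* and *Gm9776* had 0.35 and 0.18. In mutant lines *Bhmt2*, which was chosen for its rise, *Bhmt* and *Dmgdh* had the highest means of these 11 genes, with *Scamp1* within the error of *Dmgdh*. *Dmgdh* was also higher on day 2 in WT lines, by 0.79, and its mutant minus WT difference was 0.17 (SE 0.47). In mock cells *Scamp1* and *Arsb* had larger changes than *Dmgdh*, and *Lhfpl2* (0.46) a like one.

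**Figure D2:**
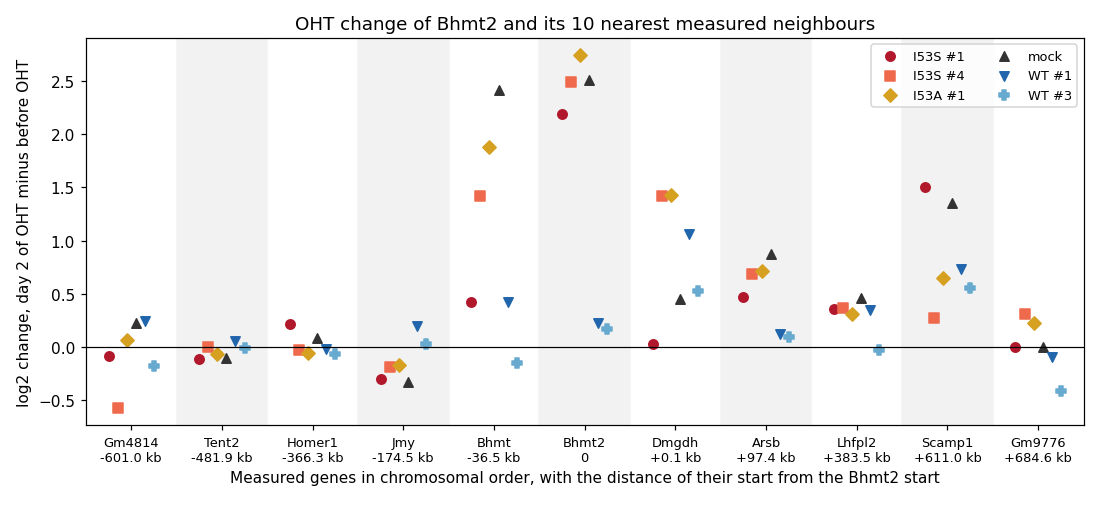
Log2 change, day 2 of OHT minus before OHT (vertical axis), of *Bhmt2* and its 10 nearest measured genes in chromosomal order, with the distance of each start from that of *Bhmt2* in kb under the name and 1 point per ESC line. *Bhmt2* lies at 2.19 to 2.74 in mutant lines and at 2.51 in mock cells. On the far side of *Bhmt*, *Jmy*, *Homer1* and *Tent2* lie between -0.33 and 0.22 over all lines, and *Gm4814* between -0.57 and 0.25.

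*Chdh* encodes choline dehydrogenase, which starts the oxidation of choline to betaine. Its only probe set, 1455435_s_at, has the ending that marks probes matching several transcripts. This probe set read 3.99, 4.54 and 3.81 on day 2 of OHT in I53S #1, I53S #4 and I53A #1, against 3.39, 3.77 and 3.21 before OHT. The mock line read 4.94 on day 2 and 3.58 before OHT, and the WT lines read 3.30 and 3.99 on day 2 and 4.15 and 3.65 before OHT. Day 2 was higher in every mutant line and in mock cells, and the WT lines moved in opposite directions, by -0.85 and 0.34. Only 5 of the 12 arrays were above the limit of the filter, 4 on day 2 and 1 before OHT.

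The change of *Chdh* was 0.66 in mutant lines (SE 0.22, adjusted p = 0.147 from limma), 1.36 in mock cells (SE 0.38, adjusted p = 0.143) and -0.26 in WT lines (SE 0.27, adjusted p = 0.893). Mutant minus WT lines was 0.91 (SE 0.35, adjusted p = 0.375). Leaving out either WT line, which removes the spread between them from the fit, gave an adjusted p of 0.0382 in mutant lines, and leaving out 1 mutant line gave 0.320 to 0.363. The difference between mutant and WT lines was 0.32 without WT #1 and 1.51 without WT #3 (adjusted p = 0.679 and 0.249).

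*Mtr* encodes methionine synthase, which methylates homocysteine from folate with cobalamin as cofactor. Its probe set 1439811_at read 7.65, 7.75 and 7.91 on day 2 of OHT in mutant lines, against 7.96, 8.19 and 7.98 before OHT. It read 7.83 on day 2 and 8.26 before OHT in mock cells, and 8.01 and 7.82 on day 2 and 7.98 and 8.07 before OHT in WT lines. The second probe set, 1458532_at, read 4.88, 4.54 and 4.44 on day 2 in mutant lines, against 5.17, 5.21 and 5.33 before OHT. It was lower on day 2 in all 6 lines, by 0.20 in mock cells and by 0.63 and 0.79 in WT lines, and 1439811_at was lower in 5 of 6. Averaged over both, the change of *Mtr* was -0.44 in mutant lines (SE 0.10, adjusted p = 0.0610), -0.32 in mock cells (SE 0.17, adjusted p = 0.377) and -0.41 in WT lines (SE 0.12, adjusted p = 0.563). The difference, mutant minus WT lines, was -0.03 (SE 0.16, adjusted p = 0.956). In mutant lines *Mtr* was called lower with the filter on the mean signal (adjusted p = 0.0235) and with trended and robust priors (adjusted p = 0.0230). With its brightest probe set, 1439811_at, it had -0.27 in mutant lines (adjusted p = 0.220) and -0.11 in WT lines (0.919), and with 1 mutant line left out its adjusted p ran from 0.138 to 0.220.

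*Ahcy*, whose product hydrolyses S-adenosylhomocysteine to homocysteine, varied least between arrays. It read 12.35, 12.02 and 12.20 on day 2 in mutant lines, against 12.37, 12.01 and 12.10 before OHT. Its change was 0.03 in mutant lines (SE 0.08, adjusted p = 0.871), 0.16 in mock cells and 0.03 in WT lines. With the values as deposited it was -0.11 in mutant lines and -0.23 in mock cells, where the median of all genes was -0.13 and -0.34, so no direction is given for this gene. *Mat1a*, the liver form of the enzyme that makes S-adenosylmethionine, read 2.73 to 3.01 on day 2 and 2.96 to 3.28 before OHT, under the limit on all 12 arrays.

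*Cbs* encodes cystathionine beta-synthase, which draws homocysteine off toward cysteine. Probe set 1423844_s_at changed by 0.44, 0.36 and 0.28 in I53S #1, I53S #4 and I53A #1, by 0.34 in mock cells and by 0.24 and -0.20 in WT lines. Probe set 1425623_a_at changed by -0.41, -0.15 and 0.62 in mutant lines, by 0.51 in mock cells and by -0.15 and -0.05 in WT lines. The probe sets disagreed in sign in I53S #1, I53S #4 and WT #1. Averaged, *Cbs* had 0.19 in mutant lines (SE 0.12, adjusted p = 0.389), 0.42 in mock cells (SE 0.20, adjusted p = 0.313) and -0.04 in WT lines (SE 0.14, adjusted p = 0.975).

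**Figure D3:**
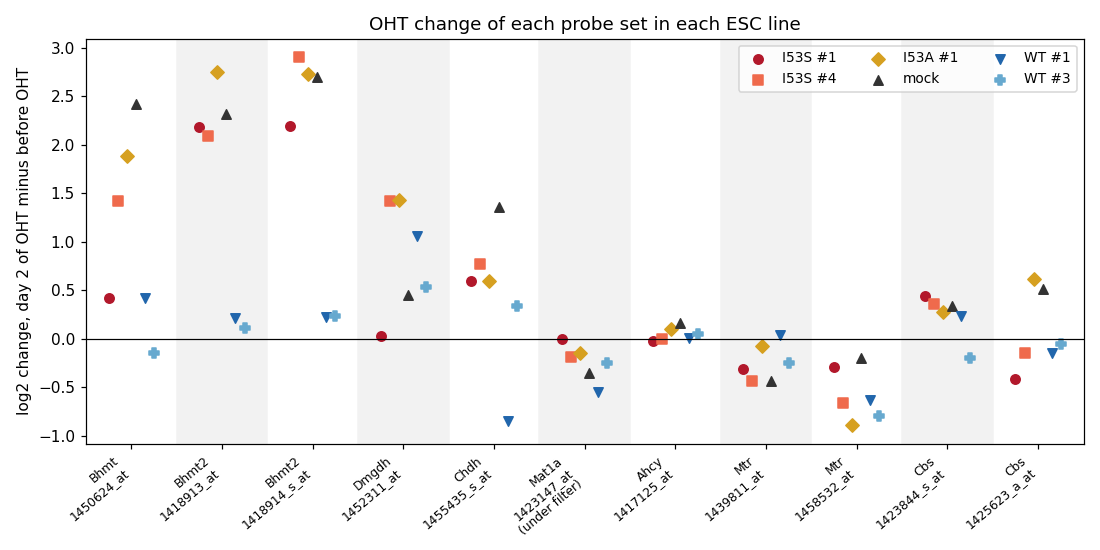
Log2 change, day 2 of OHT minus before OHT (vertical axis), of each probe set of the betaine and methionine cycle genes, with 1 point per ESC line. *Bhmt2* shows the 3 mutant lines and the mock line at 2.09 to 2.90 and both WT lines at 0.11 to 0.24, whereas *Bhmt* and *Dmgdh* range over the mutant lines from 0.42 to 1.88 and from 0.03 to 1.43.

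Of the 6 fitted members other than *Bhmt2*, 0 passed the threshold in mutant lines, where 4.91% of all genes were called higher and 1.55% lower. At an unadjusted p under 0.05 there were 4, *Bhmt*, *Dmgdh*, *Chdh* and *Mtr*, against 23.7% of all genes. In mock cells 0 of 6 passed, with 1.29% of all genes called higher and 0.383% lower, and 2, *Bhmt* and *Chdh*, had an unadjusted p under 0.05 (19.9% of all genes). In WT lines 0 of 6 members and 0% of all genes passed in either direction, and 1 member, *Mtr*, had an unadjusted p under 0.05 (7.61% of all genes). For the difference between mutant and WT lines it was also 0 of 6 and 0% of genes, with 1 member, *Chdh*, at an unadjusted p under 0.05 (12.6%). These comparisons share arrays, since 1 fit gives the spread of all lines and the mutant lines enter both their own OHT effect and the difference.

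Before OHT, with endogenous *Ring1B* still present in all lines, the levels of the mutant and WT lines were compared. The construct cannot be told apart here from other differences between the lines. Of the 17 fibroblast markers, 15 were higher in mutant lines, with a median difference of 0.44 and 0 called. *Dmgdh* read 4.46, 4.30 and 3.90 in mutant lines, 3.22 and 3.65 in WT lines and 3.71 in the mock line. Of these 6 arrays, 4 were under the limit of the filter, those of I53A #1, the mock line and both WT lines. The difference was 0.79 (SE 0.23, adjusted p = 0.892 from limma). Of the other fitted members, *Chdh* differed by -0.44, *Cbs* by -0.34, *Mtr* by -0.20, *Bhmt* by -0.16 and *Ahcy* by -0.05, with adjusted p from 0.951 to 0.985. Here 0 of 6 members and 0% of all genes passed, *Dmgdh* was the 1 member at an unadjusted p under 0.05, and 5.25% of genes had an unadjusted p under 0.05.

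Over the 12 arrays, *Bhmt* had the signal most like that of *Bhmt2* among the members (Pearson r = 0.879, rank 297 among 16431 genes). *Dmgdh* had r = 0.773, *Chdh* 0.636, *Cbs* 0.278, *Ahcy* 0.002 and *Mtr* -0.635. The 5 genes most like *Bhmt2* were *Tlcd4* (0.987), *Gm715* (0.985), *Eif4e3* (0.982), *Nr2f1* (0.981) and *Rbm46* (0.977). *Nr2f1*, a nuclear receptor of neural development, changed by 2.24, 2.32 and 2.74 in mutant lines, 3.28 in mock cells and 0.37 and 0.70 in WT lines. *Eif4e3*, a cap-binding protein gene, changed by 0.91, 0.82 and 0.78 in mutant lines, 0.63 in mock cells and 0.17 and 0.06 in WT lines. These correlations are descriptions over arrays that come in pairs from 6 lines, with 4 arrays high and 8 low for *Bhmt2*.

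The other enzymes around the cycle were described as 6 lists of one-carbon and sulfur metabolism. In mutant lines 5 of their 80 measured genes passed the threshold, 3 higher (3.75%, against 4.91% of all genes) and 2 lower (2.5%, against 1.55%), so the lists as a whole were near the shares over all genes. Among 12 measured genes of transsulfuration and sulfur oxidation, 2 rose and 0 fell. *Sqor*, the mitochondrial sulfide quinone oxidoreductase, changed by 1.39, 0.88 and 1.06 in I53S #1, I53S #4 and I53A #1 (mean 1.11, SE 0.13, adjusted p = 0.0135), by 0.34 in mock cells and by 0.56 and 0.20 in WT lines. *Ethe1*, the persulfide dioxygenase that acts after it, changed by 0.53, 0.68 and 0.62 in mutant lines (mean 0.61, SE 0.09, adjusted p = 0.0220), by 0.86 in mock cells and by 0.05 and 0.26 in WT lines. With 1 mutant line left out the adjusted p ran from 0.0544 to 0.0726 for *Sqor* and from 0.0927 to 0.113 for *Ethe1*. With no replicate block it was 0.0562 for *Ethe1*. The list's median was 0.07 in mutant lines, -0.01 in mock cells and 0.03 in WT lines.

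Among 11 measured genes of cobalamin handling, 1 rose and 0 fell. *Amn*, the membrane anchor of the receptor that takes up cobalamin with intrinsic factor, changed by 2.28, 1.63 and 1.73 in mutant lines (mean 1.88, SE 0.14, adjusted p = 0.00617), by 2.07 in mock cells (adjusted p = 0.0366) and by -0.12 and -0.22 in WT lines. The call in mutant lines held in every alternative, and that in mock cells was lost with any 1 of the other lines left out (adjusted p from 0.0527 to 0.083) and with its probe set fitted among all probe sets (0.0638). *Amn* was the only gene of the 6 lists that passed in mock cells. *Amn* is also 1 of 13 measured markers of primitive and visceral endoderm, of which 3 rose in mutant lines (*Gata6*, *Amn* and *Col4a1*), where 4.91% of all genes did, and 4 in mock cells (these and *Foxa2*), where 1.29% did, with medians of 0.44, 0.65 and -0.04 in the mutant, mock and WT lines. With any 1 other line left out 0 genes were called in mock cells, and with 1 mutant or WT line left out *Gata6* (adjusted p from 0.0548 to 0.136) and *Col4a1* (0.0547 to 0.134) were not called in mutant lines. The part of such cells in the result was not tested.

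Among 20 measured genes of choline and betaine supply and the glycine end of the pathway, 0 rose and 2 fell. *Pcyt1b*, an enzyme of phosphatidylcholine synthesis, changed by -0.95, -0.59 and -1.07 in mutant lines (mean -0.87, SE 0.12, adjusted p = 0.0177), by -0.82 in mock cells and by -0.41 and -0.31 in WT lines. *Pipox*, which oxidises sarcosine and pipecolate, changed by -0.63, -0.52 and -0.30 in mutant lines (mean -0.48, SE 0.10, adjusted p = 0.0477), by -0.65 in mock cells and by 0.08 in each WT line. The call of *Pcyt1b* was lost without I53S #1 (adjusted p = 0.0965) and without I53A #1 (0.0865), and 1 of its probe sets did not pass by itself (0.0945). The call of *Pipox* was lost with any 1 mutant or WT line left out (adjusted p from 0.0867 to 0.188), with arrays centred on their medians (0.0586), with its probe set fitted among all probe sets (0.0738) and with no replicate block (0.214). The list's median was -0.04 in mutant lines, against -0.01 over all genes.

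Of 18 measured folate enzymes, 10 methyltransferases and partners of the S-adenosylmethionine cycle and 9 genes of polyamine synthesis and methionine salvage, 0 passed in the mutant, mock or WT lines. Their medians in mutant lines were -0.12, 0.01 and -0.08. The largest changes in mutant lines were 0.52 for *Ftcd*, which feeds carbon from histidine into folate (adjusted p = 0.0938), 0.55 for *Nnmt*, which methylates nicotinamide (adjusted p = 0.105), and -0.40 for *Mri1* of methionine salvage (adjusted p = 0.145).

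**Figure D4:**
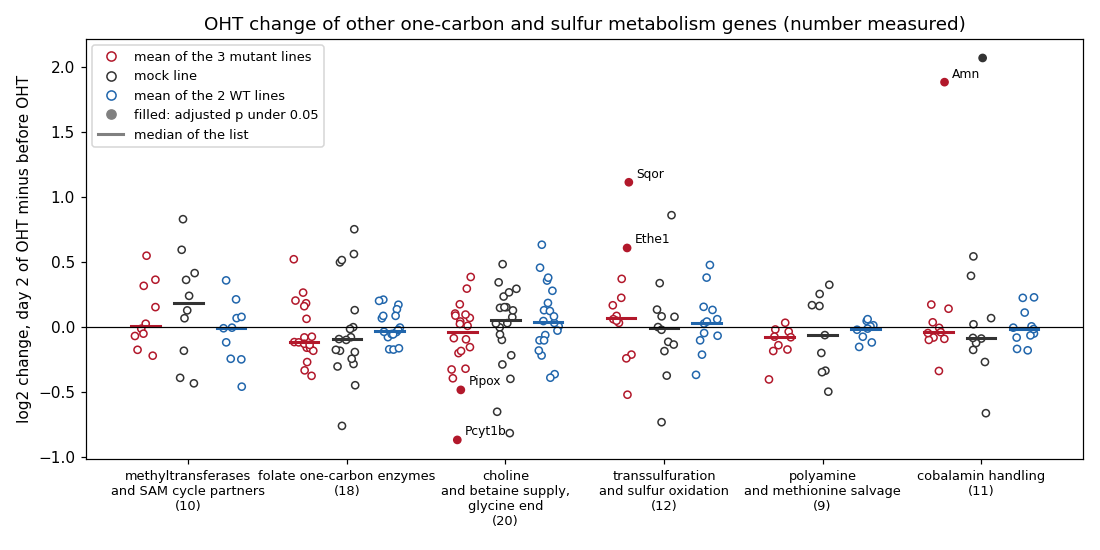
Log2 change, day 2 of OHT minus before OHT (vertical axis), of each measured gene of the 6 lists (numbers in parentheses) as the mean of the 3 mutant lines, in mock cells and as the mean of the WT lines, with filled points for an adjusted p under 0.05 and bars at the list's median. The called genes are *Sqor*, *Ethe1* and *Amn* above 0 and *Pcyt1b* and *Pipox* below 0, and all medians lie between -0.12 and 0.18.

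Because *Bhmt*, *Mat1a* and *Cbs* are best known from liver, hepatocyte markers were measured beside them. Of 14 measured markers, 0 passed in the mutant or mock lines, with medians of -0.11 and 0.18 and -0.12 in WT lines. Their mean level was 4.47 to 4.71 on day 2 of OHT and 4.62 to 4.73 before OHT in mutant lines, 4.59 and 4.52 in mock cells and 4.49 to 4.71 and 4.67 to 4.81 in WT lines. *Alb*, the albumin gene, changed by 0.58, -0.68 and -0.08 in mutant lines, and *Hnf4a* by -0.40, -0.05 and 0.06.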

How the data were processed

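The arrays measured RNA of 6 ESC lines on day 2 of OHT and before OHT, with a single array for each line at each time. What the authors deposited are log2 signals per probe set. The sample labels name Affymetrix Expression Console and RMA without versions, whereas the study's supplementary methods describe MAS5 signals with quantile normalization. The medians of the deposited log2 values ran from 4.66 to 5.67 between arrays, so the values were quantile-normalized here before all else. The values as deposited served as an alternative.

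The table holds 45101 probe sets, and 64 of them, the controls, were dropped. Of the rest, 34945 carried 1 gene symbol in the platform annotation, 932 several and 9160 none, and only those with 1 symbol were used. The RefSeq gene table held 18145 of their symbols and lacked 48. A probe set was kept where its highest value passed 3.94, the 30th percentile, and the 30374 of these with 1 symbol were averaged per gene.

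All 12 arrays were fitted together with limma 3.58.1 and statmod 1.5.0 in R 4.3.3 (lmFit and eBayes, two-sided, 3 residual and 2.79 prior degrees of freedom), blocked on the line and with a separate effect of OHT in mutant, mock and WT lines. The comparison before OHT used the 6 arrays of that time. The Benjamini-Hochberg adjustment ran over 16432 genes. The mock class is 1 line, for which the spread of the other lines was taken. P-values measure the spread between these lines. Arrays of the same cell line form a pair, and the deviations of the 2 arrays of a line from their class means correlated at 0.27 for the WT lines and at 0.362 to 0.427 for mutant lines. All arrays differed from each other. The fit was tested on simulated data without differences between lines, so that test does not cover the block or the pairing. Precision is limited by the number of arrays.

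The alternatives were values as deposited, arrays centred on their medians, no filter, a filter on the mean signal, the brightest probe set of a gene, every probe set by itself, no replicate block, trended and robust priors, and each line left out. The genes named were every member with a probe set, the called members of each list (at most 3, or the 1 with the largest change), the 5 measured genes on either side of *Bhmt2*, the 5 genes most correlated with it, and *Rnf2* and *Ring1*. The markers *Thy1*, *Klf4*, *Gata6*, *Col4a1*, *Foxa2*, *Alb* and *Hnf4a* were named after their values were seen. The members and lists were chosen with earlier results of these data known. Promoter sequences were taken from RefSeq, where 8 of the 9 members had a window.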

Additional observations from a re-analysis of the deposited data

Results flagged for a closer look

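For 5 genes named beside the members, every mutant line moved one way on OHT and both WT lines the other. These are drawn only from the genes named in the text, and unnamed genes of the lists, such as *Mthfd1* and *Mpst*, had such signs too. *Amn* was higher in the 3 mutant lines and lower in both WT lines, a difference of 2.05 (adjusted p = 0.0880 for mutant minus WT lines from limma). *Thy1*, a fibroblast marker, was higher by 0.62, 0.66 and 0.75 in the mutant lines and lower in the WT lines, which changed by -0.30 and -0.05, a difference of 0.85 (adjusted p = 0.142). *Foxa2*, an endoderm marker, was higher by 0.75, 0.27 and 0.51 in the mutant lines and lower in the WT lines, which changed by -0.15 and -0.11, a difference of 0.64 (adjusted p = 0.262). *Pipox* was lower in the mutant lines and higher by 0.08 in each WT line, a difference of -0.56 (adjusted p = 0.247). *Jmy* was lower in the mutant lines by 0.17 to 0.30 and higher in the WT lines by 0.20 and 0.03, a difference of -0.33 (adjusted p = 0.418). None of these differences passed the threshold.

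The single mock array pair also ran against both WT lines for 7 genes, and here the difference was not tested. How many of all genes show such signs was not counted, so neither count is read as a result. Some of the changes were near 0, as for *Homer1* with 0.09 in mock cells and -0.02 and -0.06 in WT lines. Mock minus WT lines was 2.24 for *Amn*, 1.5 for *Thy1*, 2.01 for *Foxa2*, -0.73 for *Pipox*, -0.45 for *Jmy* and 0.13 for *Homer1*. It was -0.29 for *Ring1*, the gene of Ring1A, which changed by -0.05 in mock cells and by 0.22 and 0.26 in WT lines #1 and #3. With probe sets averaged, none of the betaine and methionine cycle genes showed opposite signs in all lines of 2 classes. The *Cbs* probe set 1425623_a_at by itself did, with 0.51 in mock cells and -0.15 and -0.05 in WT lines.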

How the results depend on the processing

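The arrays are few, 1 per line and time, and the mock class is a single line, so counts of calls moved with the settings more than the members' changes did. Over all settings, 373 values of the members other than *Bhmt2* kept their direction and their side of the threshold, 10 passed the threshold where they had not and 25, all uncalled, changed sign. Of the values of *Bhmt2*, which has no test, 65 moved by no more than the spread between lines (the standard error, where a class is 1 line or classes are compared) and 3 by more. Of the 3, its mutant minus WT difference before OHT was 0.22 and changed sign, to -0.033, with arrays centred on their medians. For the 10 called genes named beside the members, 107 values kept their call and 66 lost it. Many of the changes could not move by construction. The change in a class stays the same without the block, with other priors or with a line of another class left out. The counts of values that stayed are thus no measure of robustness by themselves. The cause of each change was not tested, except where a setting leaves out arrays or the block.

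In the mutant lines 807 genes were called higher and 255 lower. With no replicate block these were 486 and 77, and in mock cells 87 and 10 in place of 212 and 63. The replicate block changed no call of a member other than *Bhmt2*, and without it *Ethe1* (adjusted p = 0.0562), *Pipox* (0.214), *Klf4* (0.412), *Gata6* (0.0983) and *Col4a1* (0.394) were not called in mutant lines, nor *Thy1* in mock cells (0.0661). With trended and robust priors the counts were 1365 and 854 in mutant lines, 814 and 526 in mock cells, and 194 and 78 for mutant minus WT lines. With the filter on the mean signal, 689 genes were called lower in mutant lines, 555 higher and 328 lower in mock cells, and 42 higher and 5 lower for mutant minus WT lines. With values as deposited, 562 genes were called lower in mutant lines, 853 lower in mock cells and 41 higher in mutant lines before OHT. The median of all genes was then shifted by -0.13, -0.34 and 0.28 in these comparisons. With every probe set fitted by itself, 0 were called higher and 0 lower in mock cells.

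Of the members other than *Bhmt2*, where 0 were called in the fit as designed, 1 was called higher and 1 lower in mutant lines with the filter on the mean signal (*Bhmt* and *Mtr*), and 2 higher and 1 lower with trended and robust priors (*Bhmt*, *Dmgdh* and *Mtr*). In the mock line 1 was called higher under each of these settings (*Bhmt*).

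With a line left out, from 144 to 807 genes were called higher and from 9 to 255 lower in mutant lines. Without I53S #1, I53S #4 or I53A #1 they were 145, 168 and 144 higher and 16, 26 and 9 lower, and without either WT line 125 were lower. In the mock line the counts were 0 higher and 0 lower without any 1 of the other lines. From 0 to 1 members other than *Bhmt2* were called higher in mutant lines, *Dmgdh* without I53S #1 and *Chdh* without either WT line.

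With values as deposited, *Bhmt* differed by 0.27, *Mtr* by 0.11 and *Ahcy* by 0.046 before OHT, mutant minus WT lines, and *Ahcy* had -0.11 in mutant lines and -0.23 in mock cells. With the brightest probe set or with 1439811_at by itself, *Mtr* differed by 0.022 before OHT, and 1458532_at by itself gave a mutant minus WT difference of the OHT effect of 0.10. With the brightest probe set, or with 1423844_s_at by itself, *Cbs* had 0.020 in WT lines.

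With each line left out in turn, the OHT effect in WT lines ran from -0.15 to 0.42 for *Bhmt*, from -0.85 to 0.34 for *Chdh* and from -0.12 to 0.044 for *Cbs*, and that in mutant lines from -0.0072 to 0.0525 for *Ahcy*. Mutant minus WT lines ran from -0.094 to 0.64 for *Dmgdh*, from -0.038 to 0.021 for *Ahcy* and from -0.145 to 0.078 for *Mtr*. Before OHT the difference ran from -0.35 to 0.027 for *Bhmt* and from -0.15 to 0.052 for *Ahcy*.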
